A study of Mus musculus with 3 samples.

Results

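Enzymes on the path from squalene epoxide through lanosterol to cholesterol were represented by 7 genes, *Lss*, *Cyp51*, *Tm7sf2*, *Msmo1*, *Hsd17b7*, *Sc5d* and *Dhcr7*, out of 21938 protein-coding genes of the GENCODE annotation of mm10. They were taken from a list of names by their place in the pathway, and the rule used no peak value, but the list was drawn up with earlier results of these data known. Binding of the nuclear receptor Ad4BP/SF-1 (NR5A1) near these genes was examined by chromatin immunoprecipitation and sequencing (ChIP-seq) in Leydig cells, the androgen-producing cells of the testis. The cells came from 9-week-old male mice of the ICR strain, were enriched by density gradient from the testes of several animals together, and were cultured on collagen-coated dishes. The labels name no engineered allele. The series holds 3 samples, namely 1 Ad4BP/SF-1 library from vehicle-treated cells, 1 from cAMP-treated cells and 1 input DNA, and the input was not analysed here. The dose and duration of the cAMP treatment are not given in the sources used here.

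The first sterol of the pathway, lanosterol, is made by lanosterol synthase, the product of *Lss*. CYP51 then removes a methyl group from the ring system, TM7SF2 reduces the double bond this leaves, MSMO1 oxidizes the remaining surplus methyl groups, and HSD17B7 reduces the ketone formed during their removal. SC5D introduces a double bond, and DHCR7 carries out the last reduction that gives cholesterol on one branch of the pathway. In steroidogenic cells, cholesterol is the precursor of all steroid hormones. The genes of the pathway are known targets of SREBP-2, which acts together with NF-Y and Sp1, and cAMP is the second messenger of luteinizing hormone in Leydig cells.

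Each deposited list gives the position of a peak and a MACS score (the negative log10 of the p-value of the peak, multiplied by 10). The vehicle list held 5721 peaks with scores from 50 to 904.96, and the cAMP list held 4025 peaks with scores from 50.01 to 803.27. The lists hold no read numbers, so the depth is unknown. A score grows with the number of reads, and the place of a peak is therefore given here as the share of its own list with a lower score. With 1 library per condition there was no replicate error, no test between the conditions was possible, and a difference between the lists cannot be told apart from a difference between the libraries. The lowest scores stand above the calling threshold that the methods state, and whether weaker peaks were removed before deposit is not given in the sources used here. Absence of a peak therefore means that none is in the list, either because it was not called or because it was removed, and not that the region was unbound. A set of 7 genes was taken as Leydig cell genes (*Star*, *Cyp11a1*, *Cyp17a1*, *Hsd3b1*, *Hsd17b3*, *Insl3* and *Lhcgr*), though not all are particular to these cells. Of the 7, 3 had a peak in the gene body or within 10 kb of it in both lists, against 10.1% of all protein-coding genes. This describes binding and not the identity of the cells.

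Peaks within 10 kb were found at *Msmo1*, *Sc5d* and *Dhcr7*, and *Lss*, *Tm7sf2* and *Hsd17b7* had peaks only farther out, within 100 kb. In the gene body or within 10 kb on either side, 3 of 7 genes had a vehicle peak (*Msmo1*, *Sc5d* and *Dhcr7*) against 19.3% of all protein-coding genes, and 2 of 7 had a cAMP peak (*Msmo1* and *Sc5d*) against 14.0%. Both lists gave a peak at 2 of 7 genes, against 10.1% of all genes, and at least 1 list did so at 3 of 7, against 23.2%. With the window widened to 100 kb, a vehicle peak lay near 5 of 7 genes (49.4% of all genes). A cAMP peak lay near 4 of 7 (41.3%), and a peak of either list near 6 of 7 (56.7%). At least 1 peak of each list, overlapping or not, lay near 3 of 7 (34.1%). *Cyp51* was the gene without any peak in this window. The counts over 7 genes are small and were not tested against these shares, and those within 10 kb rest on the same 3 genes.

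**Figure D1:**
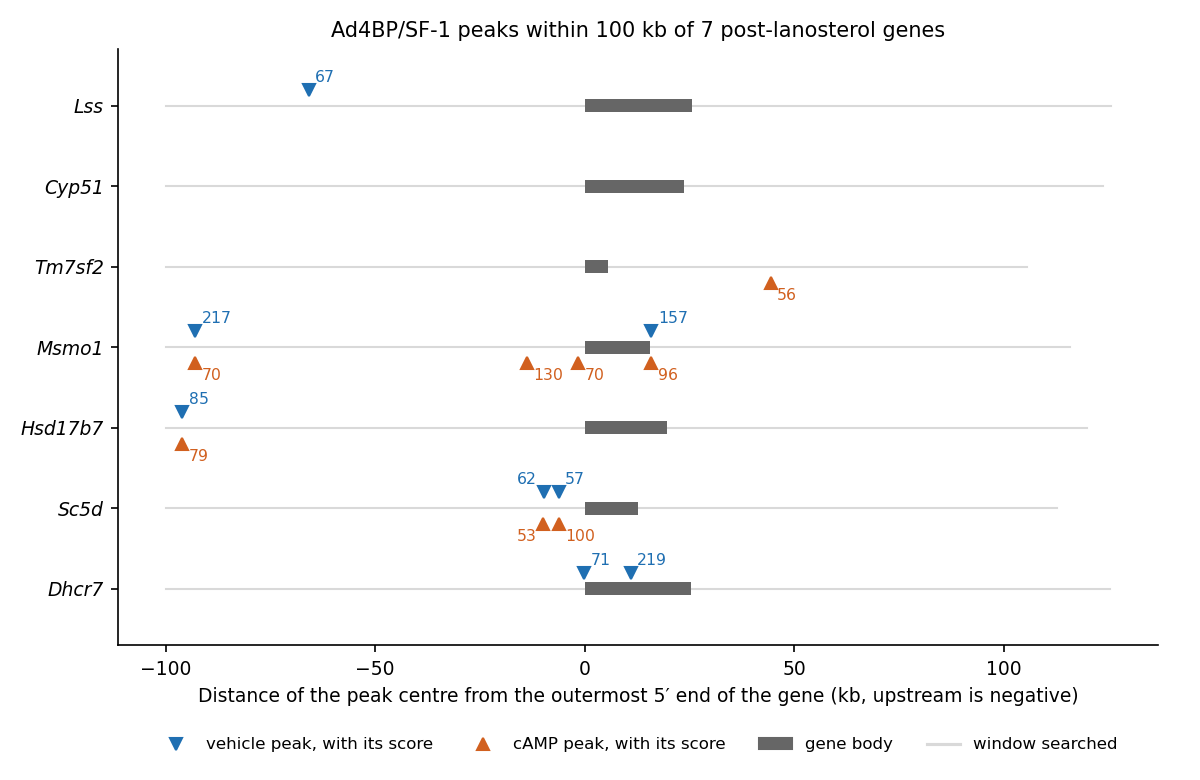
Position of every vehicle peak (blue, above each line) and cAMP peak (orange, below) in the gene body or within 100 kb of it, plotted as the distance in kb of the peak centre from the outermost 5′ end of the gene, with the MACS score beside each peak. All peaks of *Sc5d* and *Dhcr7* lie within 10.9 kb of the 5′ end, those of *Msmo1* range from 1.56 to 92.9 kb, those of *Lss*, *Tm7sf2* and *Hsd17b7* lie between 44.3 and 96.0 kb, and *Cyp51* has none.

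Within this window the lists held 8 vehicle peaks and 8 cAMP peaks. They formed 5 overlapping pairs, so that 11 separate regions were bound in at least 1 list. Of the 8 peaks in each list, 5 overlapped a peak of the other list by at least 1 bp, whereas 37.9% of all vehicle peaks and 53.8% of all cAMP peaks did. An Ad4BP/SF-1 sequence, meaning TCAAGGTC, TCAAGGCC, CCAAGGTC or CCAAGGCC on either strand, was present in 7 of 8 vehicle peaks and 7 of 8 cAMP peaks, against 80.4% and 77.1% of all peaks. The shares near the sterol genes were thus close to those of the lists as a whole, apart from the somewhat larger share of vehicle peaks with a counterpart, which rests on 8 peaks.

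The sequences around these copies are shown first, because they are the part of each peak that can be read directly. The copy at the 5′ end of *Dhcr7* is shown further on, with its promoter. Each line gives the mm10 coordinates and the strand on which the sequence is written from 5′ to 3′, with 20 reference bases on either side of the copies, and the capitals mark the 8 letters of each copy.
*Msmo1*, 3′ end, chr8:64717886-64717933, plus strand: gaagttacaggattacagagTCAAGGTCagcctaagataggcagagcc
*Msmo1*, 1.56 kb upstream, chr8:64735390-64735466, plus strand: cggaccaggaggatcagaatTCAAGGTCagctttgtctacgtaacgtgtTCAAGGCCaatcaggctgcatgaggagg
*Msmo1*, 13.8 kb upstream, chr8:64747634-64747681, minus strand: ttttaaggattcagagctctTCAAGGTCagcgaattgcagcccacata
*Msmo1*, 92.9 kb upstream, copy in both lists, chr8:64826721-64826768, plus strand: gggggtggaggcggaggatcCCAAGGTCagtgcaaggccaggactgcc
*Msmo1*, 92.9 kb upstream, copy in the vehicle peak, chr8:64826971-64827018, minus strand: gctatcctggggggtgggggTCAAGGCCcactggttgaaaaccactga
*Sc5d*, 9.84 kb upstream, first copy, chr9:42274009-42274056, plus strand: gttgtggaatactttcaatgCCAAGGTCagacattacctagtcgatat
*Sc5d*, 9.84 kb upstream, second copy, chr9:42274176-42274223, plus strand: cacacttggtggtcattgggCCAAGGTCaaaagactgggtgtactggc
*Dhcr7*, intron, first pair of copies, chr7:143833758-143833869, minus strand: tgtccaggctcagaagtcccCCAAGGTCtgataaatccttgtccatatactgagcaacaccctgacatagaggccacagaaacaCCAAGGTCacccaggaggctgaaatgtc
*Dhcr7*, intron, second pair of copies, chr7:143834399-143834475, minus strand: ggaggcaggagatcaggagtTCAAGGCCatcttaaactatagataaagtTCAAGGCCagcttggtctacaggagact
*Hsd17b7*, 96.0 kb upstream, chr1:170065264-170065311, minus strand: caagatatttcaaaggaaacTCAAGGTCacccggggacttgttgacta
*Lss*, 65.8 kb upstream, chr10:76465745-76465798, plus strand: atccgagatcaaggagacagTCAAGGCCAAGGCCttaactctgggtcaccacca
*Tm7sf2*, 43.7 kb downstream of a start, chr19:6024191-6024238, minus strand: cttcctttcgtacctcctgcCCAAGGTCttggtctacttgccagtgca

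The peaks of *Msmo1*, the methylsterol oxidase gene at chr8:64718139-64733792 on the minus strand, were the most numerous. This gene had 2 vehicle peaks and 4 cAMP peaks within 100 kb, whereas the median over all protein-coding genes was 0 in each list. One pair lay across the 3′ end of the gene, a second pair lay 92.9 kb upstream, and the remaining 2 cAMP peaks lay between them on the upstream side.

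At the 3′ end of *Msmo1*, the vehicle peak (chr8:64717591-64718229) scored 156.73, above 90.1% of its list, and the cAMP peak (chr8:64717599-64718248) scored 95.54, above 74.7%. They shared 631 bp, and their centres lay 229 and 215.5 bases beyond the end of the gene, with 91 and 110 bases of the peaks inside it. The place in the cAMP list was 15.4 percentage points lower, and 54.2% of all 2167 pairs of overlapping peaks differed by at least as much. The single TCAAGGTC copy printed for this region lay 0.5 bp from the centre of the vehicle peak and 14 bp from that of the cAMP peak, so it was almost exactly central in both lists. The primer pair that the study used for ChIP-qPCR at *Msmo1* matched this region of the genome, as the following sequences show in the order forward and reverse.
*Msmo1* forward primer, chr8:64717868-64717887, plus strand: ctccagcactggaaagctga
*Msmo1* reverse primer, chr8:64717973-64717992, minus strand: ctaggccactcactgcatcc
The amplicon of 125 bp lay wholly inside both peaks and contained the 1 copy.

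The cAMP peak nearest to a start of *Msmo1* (chr8:64735136-64735571) lay 1.56 kb upstream and scored 70.16, above 53.5% of the list. Only 2.2% of all protein-coding genes had a cAMP peak as near to a start. No vehicle peak overlapped it, and the nearest vehicle peak was 16.9 kb away. It held a TCAAGGTC and a TCAAGGCC copy on the same strand, at 60 and 89 bp from the peak centre. The TCAAGGTC copy was in bases that the reference marks as repeated sequence, a check added after the peaks had been seen.

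Farther upstream, at 13.8 kb, a second cAMP peak without a counterpart (chr8:64747413-64747808) scored 130.05, above 87.9% of the list, and lay in intron 13 of the neighbouring gene *Klhl2*. The start nearest to its centre was nevertheless that of *Msmo1*, and the nearest vehicle peak was 29.2 kb away. Of the 488 cAMP peaks that scored at least as high, 460 (94.3%) had a vehicle counterpart, and this peak ranked 28 among the 1858 cAMP peaks that had none. It was thus among the highest-scoring peaks called in the cAMP list alone, with 1 TCAAGGTC copy at 47 bp from its centre.

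The pair 92.9 kb upstream of *Msmo1* lay in intron 2 of *Klhl2*, whose own start was the nearest at 23.2 kb. The vehicle peak (chr8:64826357-64827094) scored 217.07, above 95.7% of its list, and the cAMP peak (chr8:64826472-64826895) scored 70.2, above 53.6%. The cAMP peak lay wholly inside the vehicle peak, and its place was 42.1 percentage points lower, a difference that 17.5% of all pairs reached. A CCAAGGTC copy was present in both, at 19 and 61 bp from the centres, and a TCAAGGCC copy at 269 bp from the centre of the vehicle peak was outside the cAMP peak.

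*Sc5d*, which encodes the desaturase that makes 7-dehydrocholesterol, lies at chr9:42251595-42264256 on the minus strand and had 2 pairs of peaks in the intergenic sequence upstream of its start. Both pairs had the start of *Sc5d* as the nearest protein-coding start. For the nearer pair, 8.35% of all protein-coding genes had a vehicle peak as near to a start and 5.49% a cAMP peak.

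In the pair nearer to *Sc5d*, the vehicle peak (chr9:42270243-42270651) lay 6.19 kb upstream and scored 56.65, above 20% of its list. The cAMP peak (chr9:42270046-42270666) lay 6.1 kb upstream, contained the whole vehicle peak and scored 100.01, above 77.0% of its list. The cAMP peak stood 57 percentage points higher in its list than the vehicle peak in its own, and 7.48% of all 2167 pairs had a difference at least as large in either direction. This was the only region at the sterol genes without an Ad4BP/SF-1 sequence. The 409 bp that the peaks shared held 3 matches with 1 mismatch, a search added after the peaks had been seen. Such matches are common, since among peaks that lacked a copy in the central 409 bp, at least 3 were found there in 42.3% (vehicle) and 29.0% (cAMP). At *Sc5d*, 2 of the 3 overlapped, as the capitals in the next line mark.
*Sc5d*, 6.19 kb upstream, chr9:42270328-42270381, minus strand: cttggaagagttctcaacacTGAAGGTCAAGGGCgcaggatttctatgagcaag

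In the outer pair, the vehicle peak (chr9:42273867-42274326) lay 9.84 kb upstream of *Sc5d* and scored 62.08, above 32.9% of its list, and the cAMP peak (chr9:42273937-42274318) lay 9.87 kb upstream and scored 52.65, above 12.3%. Here the place in the cAMP list was lower by 20.6 percentage points, the opposite direction to the inner pair, and 44.0% of all pairs differed by as much. Both peaks held the same 2 CCAAGGTC copies printed above.

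*Dhcr7*, the gene of the last reductase, lies at chr7:143823145-143848410 on the plus strand and had peaks in the vehicle list only. The nearest cAMP peak (chr7:144461374-144461925, score 63.4) was 631 kb from a start, and 81.0% of all protein-coding genes had a cAMP peak as near. In contrast, 0.757% of genes had a vehicle peak as near to a start as *Dhcr7* did.

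That vehicle peak (chr7:143822852-143823211) spanned the 5′ end of *Dhcr7*, with its centre 0.136 kb upstream of a start, and scored 70.96, above 47.9% of the list. It ranked 1379 among the 3554 vehicle peaks without a counterpart. It held a CCAAGGTC copy that began 53 bases before the RefSeq start, and the 150 bases before the GENCODE gene start are shown because this was the only member whose promoter coincided with a peak.
*Dhcr7* promoter, chr7:143822995-143823144, plus strand: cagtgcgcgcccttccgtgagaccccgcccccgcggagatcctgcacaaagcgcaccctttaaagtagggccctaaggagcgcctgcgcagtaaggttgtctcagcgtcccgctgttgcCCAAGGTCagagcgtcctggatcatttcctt

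The second vehicle peak of *Dhcr7* (chr7:143833423-143834740) lay in intron 2, with its centre 10.9 kb downstream of the outermost 5′ end and 3.82 kb from the nearest annotated protein-coding start. It scored 219.19, above 95.8% of the list, and was the highest-scoring peak near any of the 7 genes. It was also 1318 bp wide, a width reached by 10 vehicle peaks (0.175%). Of the 241 vehicle peaks that scored at least as high, 228 (94.6%) had a cAMP counterpart, whereas here the nearest cAMP peak was 627 kb away. This peak therefore ranked 13 among the 3554 vehicle peaks without a counterpart.

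The *Dhcr7* intron peak held 4 copies, a number reached by 30 vehicle peaks (0.524%). Per length it was less unusual, with 3.03 copies per kb, a density that 19.2% of vehicle peaks reached, against a median of 1.98. The CCAAGGTC copies lay 300 and 236 bp before the peak centre and the TCAAGGCC copies lay 341 and 370 bp after it, so none fell in the central 200 bp. The 2 TCAAGGCC copies were in bases that the reference marks as repeated sequence, a check added after the peaks had been seen.

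**Figure D2:**
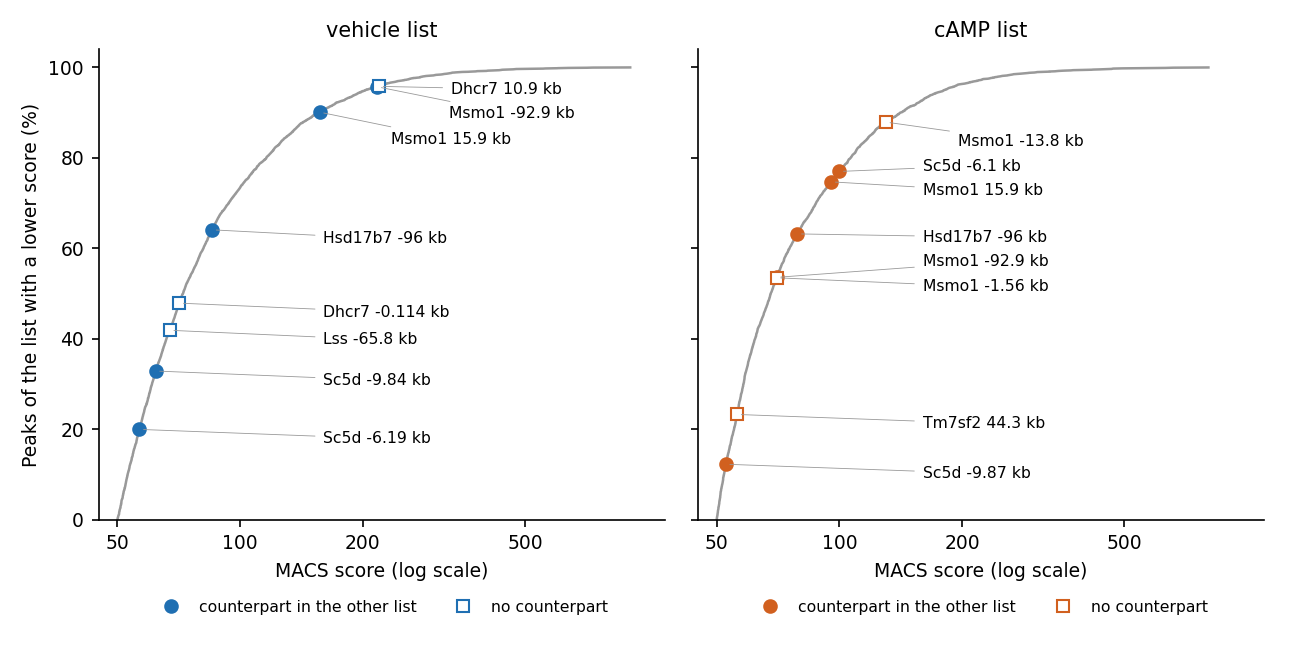
Place of each peak near the 7 genes in its own list, as the share of peaks with a lower score (vertical axis, %) against the MACS score (horizontal axis, log scale), with the grey line for all peaks of the list. Filled circles have a counterpart in the other list and open squares have none. The *Dhcr7* intron peak (219.19) stands beside the *Msmo1* peak 92.9 kb upstream (217.07) near the top of the vehicle list, and the *Msmo1* peak 13.8 kb upstream (130.05) is the highest of the 8 cAMP peaks near the 7 genes.

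*Hsd17b7*, the ketosteroid reductase gene at chr1:169949535-169969241 on the minus strand, had 1 pair of peaks at 96.0 kb upstream. The vehicle peak (chr1:170064927-170065490) scored 85.4, above 64.1% of its list, and the cAMP peak (chr1:170064952-170065622) scored 78.9, above 63.2%. Of the 5 pairs, this one had the most similar places in the lists, with a difference of 0.91 percentage points that 95.1% of all pairs reached. It lay in intron 2 of *Ddr2*, a collagen receptor gene whose start was the nearest at 23.7 kb. The TCAAGGTC copy was 0.5 bp from the centre of the cAMP peak and 79 bp from that of the vehicle peak. At this distance 45.5% of all genes had a vehicle peak and 37.2% a cAMP peak, so the distance was an ordinary one.

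*Lss*, at chr10:76531588-76557138 on the plus strand, had 1 vehicle peak (chr10:76465484-76466089), 65.8 kb upstream, with a score of 67.23, above 41.9% of the list. It lay in intron 3 of *Ybey*, the nearest start was that of *Mcm3ap* at 3.14 kb, and the starts of both these genes stood between the peak and *Lss*. Its copies, TCAAGGCC and CCAAGGCC, shared 2 letters and lay 18 and 12 bp from the centre. The nearest cAMP peak to *Lss* was 353 kb away.

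*Tm7sf2*, at chr19:6062821-6068373 on the minus strand, had 1 cAMP peak (chr19:6023959-6024274), 43.7 kb downstream of a start, with a score of 56.15, above 23.3% of the list. This peak, 316 bp wide, was intergenic and nearest to the start of *Capn1*, a calpain gene, at 8.22 kb, with the starts of 4 other genes (*Syvn1*, *Mrpl49*, *Fau* and *Znhit2*) between it and *Tm7sf2*. The vehicle peak nearest to *Tm7sf2* was 162 kb away.

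*Cyp51*, the lanosterol demethylase gene at chr5:4081145-4104746 on the minus strand, had its nearest vehicle peak (chr5:3802850-3803320, score 73.25) at 302 kb and its nearest cAMP peak (chr5:4589999-4590350, score 77.76) at 485 kb. A peak as near was found for 70.1% and 76.1% of all protein-coding genes. The median distance over all genes was 116 kb for vehicle peaks and 162 kb for cAMP peaks, with quartiles of 33.4 and 383 kb and of 52.8 and 460 kb.

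**Figure D3:**
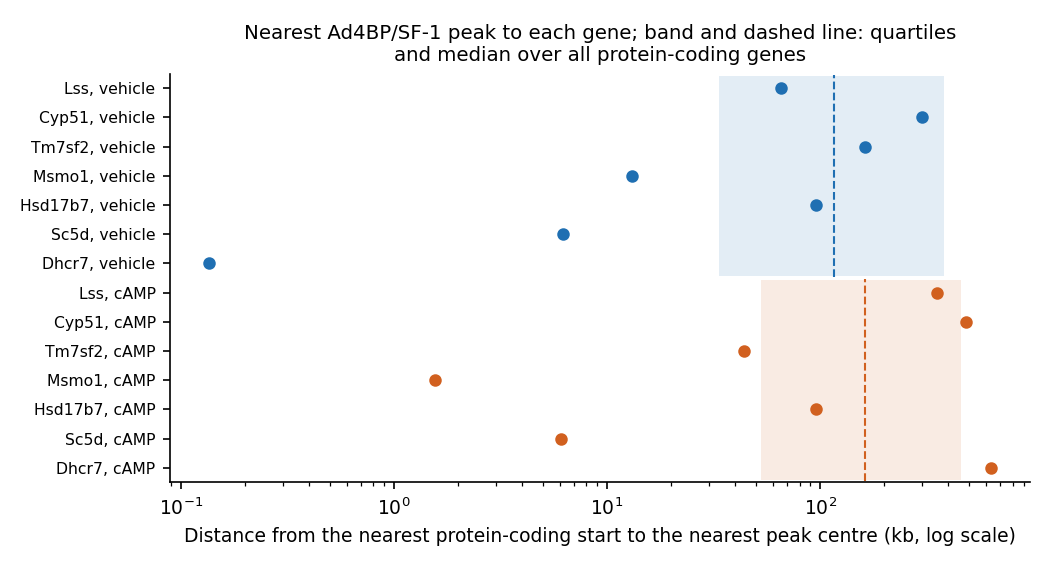
Distance in kb (log scale) from a protein-coding start of each gene to the centre of the nearest vehicle peak (blue) and cAMP peak (orange), with the band and the dashed line for the quartiles and the median over all protein-coding genes. *Dhcr7* has the shortest distance in the vehicle list (0.136 kb) and the longest in the cAMP list (631 kb), whereas *Sc5d* and *Hsd17b7* have nearly equal distances in both.

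Over the 5 pairs, the place in the cAMP list was lower at 4 pairs, by 0.91 to 42.1 percentage points, and higher at 1, the inner pair of *Sc5d*. Over all 2167 pairs, the median difference was -2.01 points, with quartiles of -19.9 and 14.2, so the *Sc5d* inner pair and the far *Msmo1* pair lay outside the quartiles, as did the outer *Sc5d* pair by a small margin. A place depends on the other peaks of its list, and the lists differ in length. These differences therefore describe the lists, and a change in binding was not tested.

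The peaks near the 7 genes held 17 distinct copies of the Ad4BP/SF-1 sequence in 10 of the 11 regions. Of these, 7 read CCAAGGTC, 5 TCAAGGCC, 4 TCAAGGTC and 1 CCAAGGCC, whereas of the copies in all peaks 42.6% (vehicle) and 45.1% (cAMP) read TCAAGGTC and 17.5% and 15.7% read CCAAGGTC. By list, the 8 vehicle peaks held 6 CCAAGGTC and 2 TCAAGGTC among 13 copies, with 3 of the 6 at *Dhcr7*, and the 8 cAMP peaks held 4 of each among 9 copies. Bases marked as repeats held 3 of the 17 copies, at *Dhcr7* and *Msmo1*, against 36.1% and 40.9% of the copies in all peaks. In all vehicle peaks, the marked share of the copies was 44.5% for TCAAGGTC, 54.7% for TCAAGGCC, 6.28% for CCAAGGTC and 6.98% for CCAAGGCC. TCAAGGCC made up 27.8% and CCAAGGCC 12.1% of the copies in that list, and the part of repeated sequence in the mix of forms at the 7 genes was not tested. At least 2 copies were present in 4 of 8 vehicle peaks and 2 of 8 cAMP peaks, against 20.8% and 19.4% of all peaks. The copies lay a median of 86 and 61 bp from the peak centre, against 45 and 45.5 bp over all peaks, and the 4 copies of the *Dhcr7* intron were among the farthest.

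**Figure D4:**
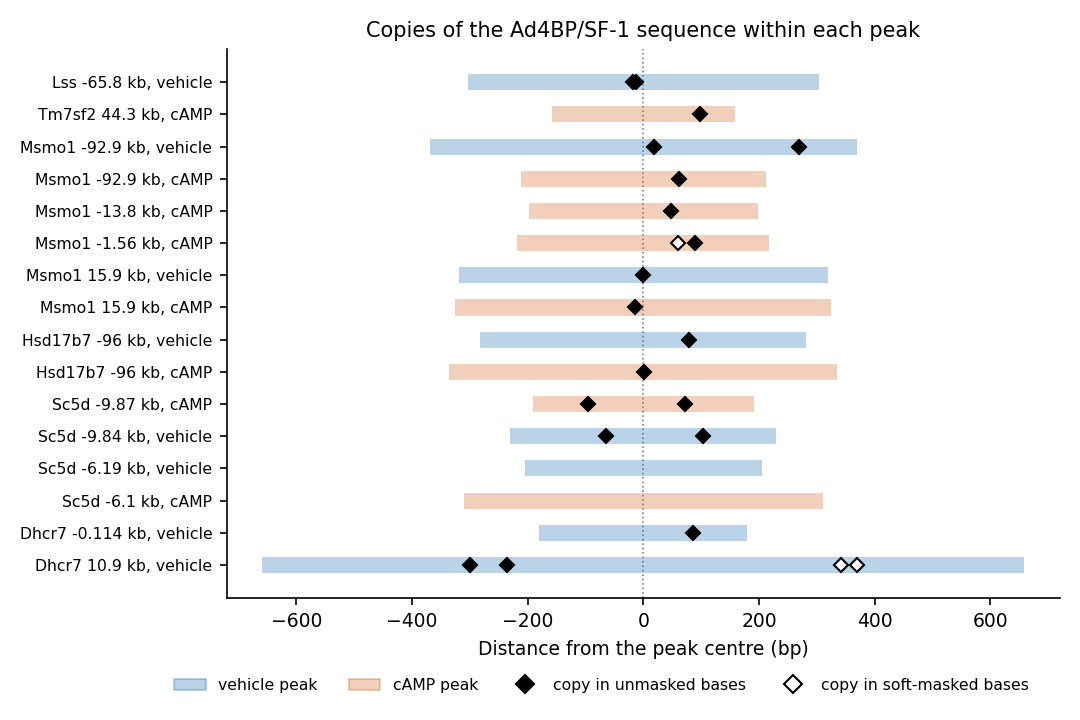
Extent of each peak near the 7 genes (bars, in bp from the peak centre) and the position of each Ad4BP/SF-1 sequence in it (diamonds, open where the reference marks repeated sequence). The copies of the *Msmo1* 3′ end lie within 14 bp of the centre, those of the *Dhcr7* intron lie 236 to 370 bp from it, and the inner *Sc5d* pair has none.

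All 7 genes had an entry in the RefSeq promoter table of GRCm38.p6, which gives 250 bases before to 50 after each start, with 9 entries in all. The Ad4BP/SF-1 sequence was present in 1 of the 9, the *Dhcr7* promoter printed above, and in 5.73% of all 32817 promoters. CCAAT, the letters recognised by NF-Y, was present in 7 of the 9 entries and in 37.4% of all promoters, and GGGCGG, the core of the Sp1 sequence, was present in 8 of the 9 and in 35.6% of all. Each of the 7 genes had at least 1 entry with each of these. At *Dhcr7*, the CCAAT letters were in the promoter of a second start and not in the one that the peak covered. Neither TCACNCCAC, a form of the sterol regulatory element read by SREBP-2, nor TGACGTCA, the cAMP response element, was found in these windows, and 1.24% and 1.79% of all promoters held them. The absence of these letters says nothing about the factors.

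Within the peaks, TGACGTCA was absent from all 16, against 0.699% and 0.77% of all peaks. The letters AGGTCA, which overlap many Ad4BP/SF-1 copies, and TGANTCA were searched for after the peaks had been seen. AGGTCA was found in 71.5% of vehicle and 69.2% of cAMP peaks in all, and at the sterol genes it was missing from the *Lss* and *Tm7sf2* peaks alone. TGANTCA was found once in each peak of the far *Msmo1* pair and of the outer *Sc5d* pair and in no other of the 16 peaks, against 21.6% and 23.2% of all peaks.

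Of the 13 other cholesterogenic genes whose primers the study lists, 3 had a vehicle peak and 4 a cAMP peak in the gene body or within 10 kb, against 19.3% and 14.0% of all protein-coding genes. Within 100 kb, 7 of the 13 had one in each list, against 49.4% and 41.3%. *Fdps*, which makes farnesyl diphosphate, had a vehicle peak 6.34 kb upstream (score 97.3) and a cAMP peak 6.37 kb upstream (110.65), a distance close to that of *Sc5d*. *Fdft1*, the squalene synthase gene, had peaks 13.0 and 12.9 kb downstream of a start (144.52 and 66.83). *Mvd* had a cAMP peak at 6.66 kb (65.0) and none in the vehicle list within 100 kb, and *Mvk*, the mevalonate kinase gene, had a pair 79.1 kb upstream (158.42 and 119.86).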

How the data were processed

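The authors mapped the reads of the Ad4BP/SF-1 libraries to mm10 with Bowtie (version 0.12.8 in their processing notes), with at most 3 mismatches. Reads that mapped uniquely went into peak calling by MACS. Dropping reads with several positions can remove peaks in repeats. The authors deposited 1 list for each condition, and the score in column 5, the only value used, was taken as deposited. Whether the input served as control is not given in the sources used here. Genes came from GENCODE M21, sequences from GRCm38.p6 (RefSeq) through samtools 1.23.1 and pysam 0.24.0, and Python 3.11.15, pandas 2.3.3 and matplotlib 3.10.9 did the rest. A peak was assigned by overlap with the gene body extended by 10 or 100 kb, a counterpart was an overlap of at least 1 bp, and distances ran from the peak centre to the nearest protein-coding start. Coordinates count from 1. Overlap, distance and sequence search were tested on simulated data. The members, the gene lists and the letters searched were chosen with earlier results of these data known. The text names all 7 genes with every peak within 100 kb, the nearest starts to these peaks, and *Fdps*, *Fdft1*, *Mvk* and *Mvd*, and *Ybey*, *Klhl2* and the genes between the *Tm7sf2* peak and its start were named after the positions had been seen. The other cholesterogenic genes are given as counts.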

Additional observations from a re-analysis of the deposited data

How the results depend on the processing

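With a window of 100 kb in place of 10 kb, 5 genes had a vehicle peak (49.4% of all protein-coding genes). A cAMP peak was near 4 genes (41.3%), a peak of either list near 6 (56.7%) and peaks of both lists near 3 (34.1%). With the lists limited to equal length, the counts within 10 kb did not change. Shares of all genes are not given for that setting. Counting peaks in the gene body and no flank, a vehicle peak was found at 2 genes (12.6% of all protein-coding genes), a cAMP peak at 1 (9.16%), a peak of either list at 2 (15.4%) and peaks of both lists at 1 (6.42%). With scores of at least 75, 2 genes had a vehicle peak (10.8%), 2 a cAMP peak (6.72%), 3 a peak of either list (12.6%) and 1 had peaks of both lists (4.87%). When both lists were limited in this way, 2 of 4 vehicle and 2 of 4 cAMP peaks within 100 kb overlapped each other, against 37.3% and 61.4% of all such peaks. With scores of at least 100, 2 genes had a vehicle peak (6.63%), 1 a cAMP peak (4.01%), 3 a peak of either list (7.83%) and 0 had peaks of both lists (2.8%). With both lists limited to these scores, 0 of 3 vehicle and 0 of 2 cAMP peaks had a counterpart, against 38.6% and 63.3% of all, whereas 2 of 3 and 1 of 2 had one of any score, against 67.9% and 88.6%. The Ad4BP/SF-1 sequence was in 3 of 3 vehicle peaks and 1 of 2 cAMP peaks, against 87.5% and 92.0%. Fewer peaks enter at the higher scores. Of the 14 distances to the nearest peak, 5 changed when measured from the outermost 5′ end and 12 changed with scores of at least 100. No paired analysis was possible because each condition had 1 library and the results come from no test. Leaving out a library would have left no data for its condition. The depth of the libraries is unknown, which limits any statement about a missing peak.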
